A study of Homo sapiens with 12 samples.

Results

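The receptors by which myeloid cells sense formylated peptides and complement fragments were described here in U937, a human leukaemia cell line of the monocytic lineage. They are 6 genes named by symbol: FPR1, FPR2 and FPR3, C5AR1 and C3AR1, and CR1. The rule lists symbols, and a gene is read from whichever of its probe sets is brightest on average across the 12 arrays. It uses no difference between groups. However, FPR1, FPR2 and CR1 are the tested receptors with more than 1 probe set. In each, the probe set picked also had the largest ATRA difference in both cell types. All 6 were among the 19775 genes read by at least 1 probe set of their own, with 13 probe sets between them, and 4 of the 6 (FPR1, FPR2, C3AR1 and CR1) were among the 14080 genes with enough signal to be tested. A probe set pools several short probes of a transcript into a single level. The cells had been transduced with an empty vector or with a vector expressing EVI1, a zinc finger transcription factor and oncogene of myeloid leukaemia that is encoded by MECOM. Growing cultures were then exposed for 24 h to 1 µM all-trans retinoic acid (ATRA), a ligand of the retinoic acid receptors that drives maturation of some leukaemic cells, or to its solvent DMSO. This gives 4 groups of 3 biological replicates, numbered 1 to 3 in the labels: vector cells in DMSO or ATRA, and EVI1 cells in DMSO or ATRA. The title of the series names the question, whether EVI1 changes the reaction of myeloid cells to ATRA. All groups share 1 cell line, the labels do not say whether the transduced cells were a pool or a clone, and no group without a vector was included.

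Formyl peptide receptors are G protein coupled receptors of phagocytes that bind N-formylated peptides released by bacteria and by damaged mitochondria. C5AR1 and C3AR1 bind the anaphylatoxins C5a and C3a, small fragments cut from complement proteins, and like the formyl peptide receptors they signal through inhibitory G proteins to migration, granule release and the oxidative burst. CR1 is a different kind of protein, a long transmembrane receptor built of repeated complement control modules that binds C3b and C4b on coated particles and restrains further complement activation. These receptors are typical of maturing monocytes and neutrophils.

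In the RefSeq gene order of GRCh38.p14, FPR1, FPR2 and FPR3 are consecutive protein-coding genes on chromosome 19, with HAS1 before and ZNF577 after them. C5AR1 is followed by C5AR2 on the same chromosome, CR1 lies between CR2 and CR1L on chromosome 1, and C3AR1 lies between FOXJ2 and NECAP1 on chromosome 12. The 250 bases before the transcription start are shown for the 4 tested receptors. The reason is that C3AR1 with CR1, and FPR1 with its neighbour FPR2, correlated across the 12 arrays (r = 0.884 and 0.821). FPR1 and FPR2 were not alike in every comparison: between the cell types under ATRA they differed by 0.10 and 1.07. FPR2 has another start, not shown. The sequences are from RefSeq's promoters of GRCh38.p14, written 5′ to 3′ on the strand of the gene and ending at the base before the start, and capitals mark the motifs found in them.
C3AR1, chr12:8066360-8066609, minus strand: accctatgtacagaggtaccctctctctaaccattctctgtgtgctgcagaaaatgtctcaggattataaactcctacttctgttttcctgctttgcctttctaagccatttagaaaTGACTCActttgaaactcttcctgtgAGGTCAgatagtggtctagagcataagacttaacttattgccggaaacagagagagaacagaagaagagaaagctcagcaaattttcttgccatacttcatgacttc
CR1, chr1:207495907-207496156, plus strand: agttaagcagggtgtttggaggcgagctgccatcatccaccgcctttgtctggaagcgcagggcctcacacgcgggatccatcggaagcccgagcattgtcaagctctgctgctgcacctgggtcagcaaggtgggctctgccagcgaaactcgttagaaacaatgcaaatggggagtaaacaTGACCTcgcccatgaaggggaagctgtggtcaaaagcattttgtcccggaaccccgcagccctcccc
FPR1, chr19:51751879-51752128, minus strand: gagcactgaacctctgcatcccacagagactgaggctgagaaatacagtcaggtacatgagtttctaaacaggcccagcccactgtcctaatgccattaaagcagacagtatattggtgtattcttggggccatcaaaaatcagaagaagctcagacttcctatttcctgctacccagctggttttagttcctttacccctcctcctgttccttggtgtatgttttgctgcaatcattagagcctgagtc
FPR2, chr19:51760930-51761179, plus strand: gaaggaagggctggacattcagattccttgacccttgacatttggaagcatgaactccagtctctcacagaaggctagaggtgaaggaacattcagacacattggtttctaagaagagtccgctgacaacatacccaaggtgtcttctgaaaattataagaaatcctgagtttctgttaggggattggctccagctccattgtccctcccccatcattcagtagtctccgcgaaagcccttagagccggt

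Each motif was searched on both strands, with overlaps allowed. The paired retinoid sites contain the half-site. The retinoid receptor half-site AGGTCA was in the C3AR1 window from -107 to -102, counted from the start site, and in the CR1 window from -67 to -62, where it reads TGACCT on the strand shown. It was in 12.1% of the 35116 windows of this length in the table. The AP-1 motif TGANTCA was in the C3AR1 window from -133 to -127 and in 6.57% of all windows. The core GAGGAA of the myeloid factor PU.1 was found, reading TTCCTC, only in the C5AR1 window among the 5 receptors with a window (23.6% of all windows). The motif GACAAGATA of the proximal zinc fingers of EVI1 was in none of the receptor windows and in 0.0854% of all windows. Neither FPR1 nor either start of FPR2 held any of these motifs. Direct repeats of AGGTCA spaced by 1, 2 or 5 bases were in no receptor window and in 6, 1 and 1 of all windows. A match is a description of letters and not of binding, and no binding was measured.

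Signals of the 12 arrays were alike. The medians of all probe sets lay between 5.29 and 5.35 on the log2 scale, the lower quartiles between 3.83 and 3.91, and arrays of the same group correlated with r from 0.987 to 0.995 over all probe sets. The 5 probe sets of MECOM read 2.61 to 3.60 on every array, which leaves the EVI1 label unchecked by the arrays, and the groups are named by it. Both DMSO arrays with number 3 leaned towards ATRA in the gene DHRS3, and whether the arrays did so as a whole was not tested. DHRS3, a retinaldehyde reductase induced by retinoids, read 8.70 and 9.70 there, 5.30 to 6.30 on the remaining DMSO arrays and 10.43 to 11.21 under ATRA. Results are therefore also given without them where that changes the call. Of 9 myeloid markers with a probe set 7 were above the signal limit, among them lysozyme (LYZ, 12.35 to 13.65), while CD14 (3.93 to 4.76) and FCGR1A (3.21 to 3.80) were below it. The mean level of the myeloid list was 6.91 to 7.09 under DMSO and 6.92 to 7.21 under ATRA in vector cells, and 6.89 to 6.95 and 7.15 to 7.22 in EVI1 cells. Of its 7 tested members, 3 rose with ATRA in EVI1 cells (CSF3R by 1.32, CSF2RA by 0.63 and CSF1R by 0.62), against 7.45% of all genes. None was called in vector cells, where 2.00% of all genes rose and 1.52% fell. With the block 1 rose and 2 fell in vector cells, against 9.96% and 10.1% of all genes. In EVI1 cells 3 rose and 2 fell with it, against 16.3% and 19.4%. The 2 that fell were LYZ and ANPEP in both cell types (-0.46 and -0.35 in vector cells, -0.45 and -0.30 in EVI1 cells). The part of these markers in the receptor results was not tested. In a culture measured as a whole, fewer cells with a transcript and less of it per cell cannot be told apart.

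A gene had to reach a log2 signal of 5 on at least 3 arrays, the signal limit, to be tested with limma, a linear model that pools information on spread over genes. It is said to be called, to rise or to fall at a p-value under 0.05 after adjustment over all 14080 genes. The replicate block is the same model with the replicate number as a further term, so that arrays of a number are compared with each other. Same-numbered arrays deviated together, and the block is quoted beside a result where it changes the call. Fits with arrays left out, and the other alternatives to the main fit, were run without the block. They do not use this pairing. Values are log2 levels in the order of numbers 1, 2 and 3, and differences are log2 differences.

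FPR1, the high-affinity receptor for formylated bacterial peptides, was higher with ATRA in both cell types, by about the same amount. Its main probe set, 205119_s_at, read 5.76, 5.65 and 5.68 at numbers 1, 2 and 3 in vector DMSO and 5.90, 6.69 and 6.27 in vector ATRA. It read 5.70, 5.71 and 5.99 in EVI1 DMSO and 6.27, 6.29 and 6.60 in EVI1 ATRA. The DMSO and ATRA arrays did not overlap in either cell type, although array 1 of vector ATRA lay only 0.14 above its DMSO partner. In EVI1 cells FPR1 had means of 5.80 ± 0.16 under DMSO and 6.39 ± 0.19 under ATRA (SD, n = 3), and it rose by 0.59 ± 0.18 (SE), or 1.50-fold, with a limma adjusted p of 0.0428. In vector cells the means were 5.70 ± 0.06 and 6.29 ± 0.40, and the difference of 0.59 ± 0.18 had a limma adjusted p of 0.0968, or 0.0258 with the replicate number as a block.

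The call of FPR1 in EVI1 cells rested on 1 of its probe sets and, without the block, on a narrow margin. It held in 9 of 21 alternatives, among them the replicate block (limma adjusted p = 0.0145). Its adjusted p was above the threshold without array 2 (0.0814) or 3 (0.175) of EVI1 ATRA, array 1 (0.135) or 2 (0.126) of EVI1 DMSO, array 3 of vector ATRA (0.0601), or array 1 (0.0581), 2 (0.0591) or 3 (0.0579) of vector DMSO, and without both number 3 DMSO arrays (0.0567). It was also above it with no signal limit (0.0511), with each probe set as its own row (0.0517) and with only the 2 groups compared (0.0596). In vector cells the omission of 1 array brought a call, that of array 1 of vector ATRA (0.0395). The second FPR1 probe set, 205118_at, read 3.23 to 3.72 on all 12 arrays, below the lower quartile of each array, and differed with ATRA by -0.13 in vector and -0.04 in EVI1 cells. Between the cell types FPR1 differed by 0.10 ± 0.18 under DMSO (limma adjusted p = 0.965) and by 0.10 ± 0.18 under ATRA (limma adjusted p = 0.817), with overlapping arrays both times. The 95% interval of the difference under ATRA ran from -0.28 to 0.48.

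FPR2, the neighbour of FPR1 and a receptor of broad ligand range that binds formylated peptides, serum amyloid A, annexin A1 and lipid mediators, rose with ATRA in EVI1 cells and was then higher there than in vector cells. Probe set 210772_at read 5.57, 5.46 and 6.17 in EVI1 DMSO and 6.81, 7.27 and 7.41 in EVI1 ATRA. It read 4.99, 5.57 and 5.56 in vector DMSO and 5.90, 6.65 and 5.72 in vector ATRA. The 3 EVI1 ATRA arrays were higher than all 9 others, and array 3 of vector ATRA lay only 0.16 above its DMSO partner. In EVI1 cells its means were 5.73 ± 0.38 and 7.16 ± 0.31 (SD, n = 3), and it rose by 1.43 ± 0.27 (SE), or 2.69-fold, with a limma adjusted p of 0.00595. This call held in all 22 alternatives tried, with adjusted p from 0.000889 to 0.0309.

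In vector cells the means of FPR2 were 5.37 ± 0.33 and 6.09 ± 0.49 (SD, n = 3), and the difference of 0.72 ± 0.27 (SE) had a limma adjusted p of 0.186, or 0.0506 with the replicate block. Under ATRA, FPR2 was higher in EVI1 than in vector cells by 1.07 ± 0.27, or 2.10-fold, with a limma adjusted p of 0.0401 (0.00801 blocked). Under DMSO the difference was 0.36 ± 0.27 (limma adjusted p = 0.812) and the arrays overlapped. The call under ATRA was lost without array 2 (0.121) or 3 (0.171) of EVI1 ATRA, array 1 (0.128) or 3 (0.148) of vector ATRA, or array 2 (0.0562) or 3 (0.0544) of vector DMSO, with the mean of its probe sets (0.0886) and with only the 2 groups compared (0.0804). The other FPR2 probe set, 210773_s_at, had means of 5.20 ± 0.36 under DMSO and 5.46 ± 0.42 under ATRA in vector cells, and of 5.35 ± 0.41 and 6.04 ± 0.42 in EVI1 cells, in the same order as the first. Tested as its own row, without and with the block, it passed once, with ATRA in EVI1 cells and the block (0.69 ± 0.28, limma adjusted p = 0.139, blocked 0.0297), and under ATRA the cell types differed by 0.58 ± 0.28 (limma adjusted p = 0.299).

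FPR3, the third formyl peptide receptor, which is found on macrophages and dendritic cells, was not above the signal limit on any array. Its probe sets read 3.54 to 3.94 (230422_at) and 3.31 to 3.76 (214560_at), at about the level of the lower quartiles, where differences are compressed. C5AR1, the receptor for C5a, was also below the limit, with 220088_at at 3.29 to 4.21. In vector cells it read 3.34, 3.63 and 3.74 under DMSO and 3.29, 4.09 and 3.76 under ATRA, and in EVI1 cells 3.55, 3.51 and 3.41 under DMSO and 3.47, 4.08 and 4.21 under ATRA. ATRA arrays of numbers 2 and 3 were the highest, and number 1 was not raised. Neither gene was tested, and in a fit without the signal limit the largest of these differences, 0.43 ± 0.21 for C5AR1 with ATRA in EVI1 cells, had a limma adjusted p of 0.268.

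**Figure D1:**
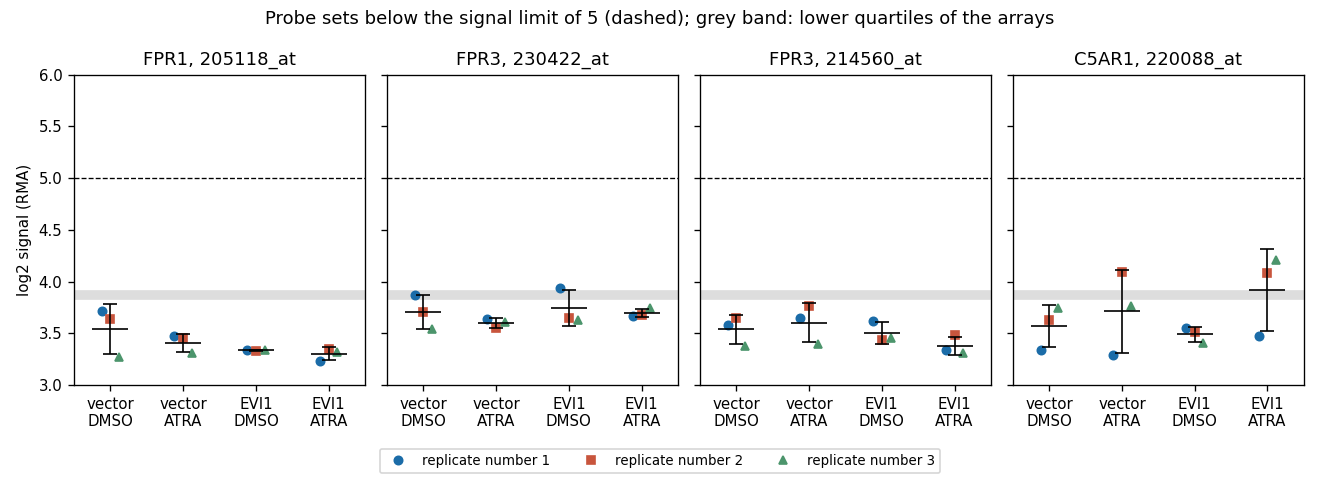
Log2 signal on 12 arrays of 4 probe sets that did not reach the signal limit: the second probe set of FPR1, both probe sets of FPR3 and the probe set of C5AR1. Points are arrays with colour and shape by replicate number, horizontal bars are means and error bars SD of 3 arrays. The values lie between 3.23 and 4.21, under the limit of 5, and mostly under the band of lower quartiles (3.83 to 3.91).

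C3AR1, the receptor for C3a, rose with ATRA in vector cells and was lower in EVI1 than in vector cells under ATRA. Probe set 209906_at, the only one for this gene, read 6.70, 7.27 and 7.07 in vector DMSO and 7.83, 8.55 and 8.35 in vector ATRA. It read 6.01, 6.48 and 6.19 in EVI1 DMSO and 6.49, 7.62 and 7.10 in EVI1 ATRA. The arrays of vector ATRA were above all 9 others and those of EVI1 DMSO below all 9 others, while EVI1 ATRA and vector DMSO overlapped. In every group number 1 was lowest and number 2 highest.

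In vector cells C3AR1 went from 7.01 ± 0.29 to 8.24 ± 0.37 (SD, n = 3), a rise of 1.23 ± 0.27 (SE) or 2.35-fold, with a limma adjusted p of 0.0312 (0.000203 with the replicate block). At numbers 1, 2 and 3 the difference was 1.13, 1.28 and 1.28. In EVI1 cells it went from 6.23 ± 0.24 to 7.07 ± 0.57, a difference of 0.84 ± 0.27 or 1.79-fold that passed with the block and not without it (limma adjusted p = 0.0560, blocked 0.000343), with 0.48, 1.14 and 0.91 at the 3 numbers. In fits without the block, the call in vector cells was lost on leaving out array 2 (0.133) or 3 (0.104) of vector ATRA. It was also lost without array 1 (0.145), 2 (0.0801) or 3 (0.0618) of vector DMSO, or both number 3 DMSO arrays (0.0734). Whether the blocked result depends on any of these arrays was not tested. The difference in EVI1 cells passed without array 1 of EVI1 ATRA (0.0077) or of vector ATRA (0.0474), with array weights (0.00248) and with a signal limit of 6 (0.0489).

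Between the cell types, C3AR1 was lower with EVI1 at every number. Under ATRA it was lower by a log2 difference of -1.17 ± 0.27 (SE), or 2.26-fold, with a limma adjusted p of 0.0278 (0.000205 blocked), and at numbers 1, 2 and 3 by -1.34, -0.93 and -1.25. Under DMSO the difference was -0.79 ± 0.27, with -0.69, -0.79 and -0.88 at the 3 numbers and no overlap of the arrays, and it passed with the block and not without it (limma adjusted p = 0.262, blocked 0.00257). In fits without the block, the call under ATRA was lost on leaving out array 3 of EVI1 ATRA (0.0926) or array 2 (0.106) or 3 (0.0993) of vector ATRA. It was also lost without both number 3 DMSO arrays (0.0564) and with only the 2 groups compared (0.0909).

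**Figure D2:**
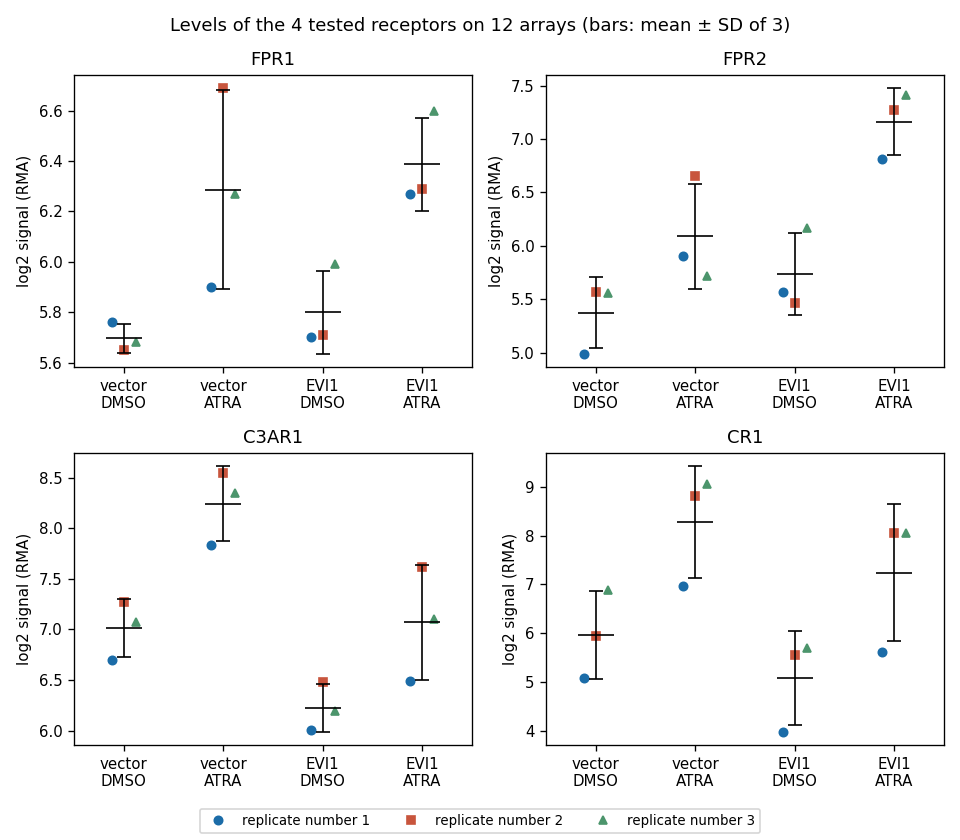
Log2 signal of the main probe sets of FPR1, FPR2, C3AR1 and CR1 in the 4 groups, each panel with its own axis. Points are single arrays with colour and shape by replicate number, horizontal bars are means and error bars SD of 3 arrays. FPR2 is highest on the 3 EVI1 ATRA arrays (6.81 to 7.41), whereas C3AR1 is highest on the 3 vector ATRA arrays (7.83 to 8.55), and number 1 is lowest in all 4 groups of C3AR1 and CR1.

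CR1, the receptor for C3b and C4b, had the largest differences with ATRA among the 6 genes and also the widest spread between replicates. Probe set 244313_at read 5.08, 5.94 and 6.88 in vector DMSO and 6.97, 8.81 and 9.06 in vector ATRA. It read 3.99, 5.56 and 5.71 in EVI1 DMSO and 5.62, 8.06 and 8.05 in EVI1 ATRA. Number 1 was the lowest in every group, array 1 of EVI1 ATRA lay within the range of EVI1 DMSO, and array 3 of vector DMSO lay just under array 1 of vector ATRA.

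In vector cells CR1 had means of 5.97 ± 0.90 and 8.28 ± 1.14 (SD, n = 3), which differ by 2.31 ± 0.75 (SE) or 4.97-fold. In EVI1 cells it went from 5.09 ± 0.95 to 7.24 ± 1.41, a difference of 2.16 ± 0.75 or 4.46-fold. Neither passed the limma test without the block (adjusted p = 0.126 in vector and 0.0758 in EVI1 cells), and both passed with it (0.000259 and 0.000102). Compared number by number, ATRA was above DMSO by 1.89, 2.87 and 2.18 in vector cells and by 1.63, 2.50 and 2.34 in EVI1 cells. Without array 1 of EVI1 ATRA the difference in EVI1 cells was 2.97 with a limma adjusted p of 0.0103, and with array weights both differences passed (0.0113 in vector and 0.00524 in EVI1 cells). CR1 was lower with EVI1 by -0.88 ± 0.75 under DMSO (limma adjusted p = 0.855, blocked 0.0400) and by -1.04 ± 0.75 under ATRA (0.490, blocked 0.00832), and the sign was the same at all 3 numbers.

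The 5 probe sets of CR1 differed in size but not in sign. Of these, 206244_at (4.22 to 5.61) and 208488_s_at (4.67 to 5.36) lay near the signal limit of 5. The size and sign of their smallest differences therefore carry little weight. With ATRA, 244313_at, 217552_x_at, 217484_at, 206244_at and 208488_s_at were higher by 2.31, 1.45, 0.82, 0.80 and 0.45 in vector cells. In EVI1 cells the differences were 2.16, 1.65, 0.51, 0.58 and 0.15. All 5 were lower with EVI1, by -0.88, -0.92, -0.39, -0.24 and -0.08 under DMSO and by -1.04, -0.71, -0.70, -0.46 and -0.39 under ATRA. Tested as rows of their own, none of the 5 passed in any of these comparisons without the block (smallest limma adjusted p 0.0700, for 208488_s_at with ATRA in vector cells). With the block all 5 passed with ATRA in vector cells, where the largest adjusted p was 0.0224, and in EVI1 cells 208488_s_at (0.322) and 217484_at (0.0845) did not. However, 206244_at reached the signal limit on 5 arrays, all under ATRA. Next, 217552_x_at reached it on 5 and 208488_s_at on 4, each with array 3 of vector DMSO as the only DMSO array. These rows were tested because ATRA arrays were high, so their results add no separate support for a difference. Between the cell types under DMSO only 244313_at passed with the block (limma adjusted p = 0.0455). Under ATRA 244313_at (0.00932), 208488_s_at (0.0228) and 217484_at (0.0338) passed with the block, and 206244_at (0.0771) and 217552_x_at (0.183) did not. In 217552_x_at, whose suffix marks probes that may also bind other transcripts, number 1 was low as well: it read 4.87, 7.33 and 7.16 in vector ATRA and 4.76, 6.59 and 5.87 in EVI1 ATRA.

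**Figure D3:**
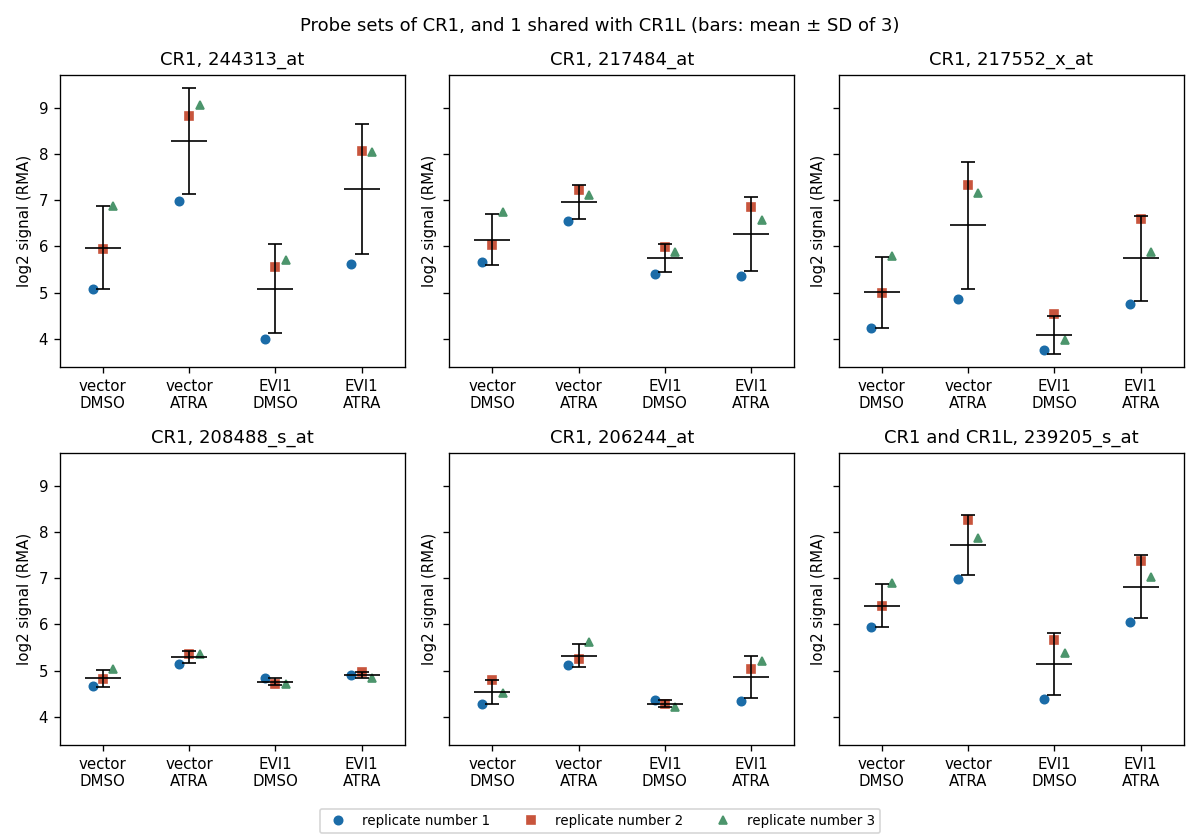
Log2 signal of the 5 probe sets of CR1, and of a further probe set shared by CR1 and its neighbour CR1L, on a common axis. Points are arrays with colour and shape by replicate number, horizontal bars are means and error bars SD of 3 arrays. Mean levels are higher with ATRA in both cell types for every probe set, from 0.15 (208488_s_at, EVI1 cells) to 2.31 (244313_at, vector cells), and number 1 is low in 244313_at and 217552_x_at.

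Over the 4 tested receptors, ATRA went with higher means for all 4 in both cell types, and EVI1 with differences of either sign. In vector cells 1 of 4 was called higher (C3AR1) against 2.00% of all 14080 genes, and 3 of 4 with the replicate block (FPR1, C3AR1 and CR1) against 9.96%. In EVI1 cells 2 of 4 were called higher (FPR1 and FPR2) against 7.45%, and 4 of 4 with the block against 16.3%. The median log2 difference of the 4 was 0.97 in vector and 1.14 in EVI1 cells, beside -0.0033 and -0.023 over all genes tested. These 4 passed the signal limit, and FPR3 and C5AR1 did not, so the counts are not counts of all 6.

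Between the cell types under DMSO, limma called 0 of 4 receptors, against 1.21% of all genes in either direction, and C3AR1 alone had an unadjusted p under 0.05. With the block C3AR1 and CR1 were called lower in EVI1 cells, where 2.99% of all genes were. Under ATRA 1 of 4 was called higher (FPR2) against 3.28% of all genes and 1 lower (C3AR1) against 2.33%. With the block FPR2 was again called higher (13.0% of all genes) and C3AR1 and CR1 lower (12.3%). The median difference of the 4 receptors was -0.34 under DMSO and -0.47 under ATRA, beside 0.017 and -0.010 over all genes.

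The difference between the ATRA effects of EVI1 and vector cells, the interaction, was called for none of the 4 receptors, and none had an unadjusted p under 0.05 without the block. It was called for 0% of all genes, also with the block, while 362 genes had an unadjusted p under 0.05 and 1846 with the block. For FPR2 the ATRA effect was larger in EVI1 cells by 0.71 ± 0.38 (SE), with a 95% interval from -0.12 to 1.55, and for C3AR1 it was smaller, at -0.39 ± 0.38, with an interval from -1.22 to 0.45. With the block the interval ran from -0.0037 to 1.43 for FPR2 and from -0.74 to -0.031 for C3AR1, and C3AR1 alone then had an unadjusted p under 0.05 (limma adjusted p = 0.359). For CR1 the interaction was -0.16 ± 1.07, with an interval from -2.48 to 2.17 that is wider than the ATRA effects themselves. With the block its SE was 0.31 and the interval ran from -0.86 to 0.54. For FPR1 the interaction was -0.0033 ± 0.25 with an interval from -0.55 to 0.54, or from -0.50 to 0.49 with the block. Without the block the limma adjusted p was 0.998 for FPR2, C3AR1 and CR1 and 0.999 for FPR1. So the calls of FPR2 in EVI1 cells and of C3AR1 in vector cells do not show that the ATRA effect differs between the cell types.

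**Figure D4:**
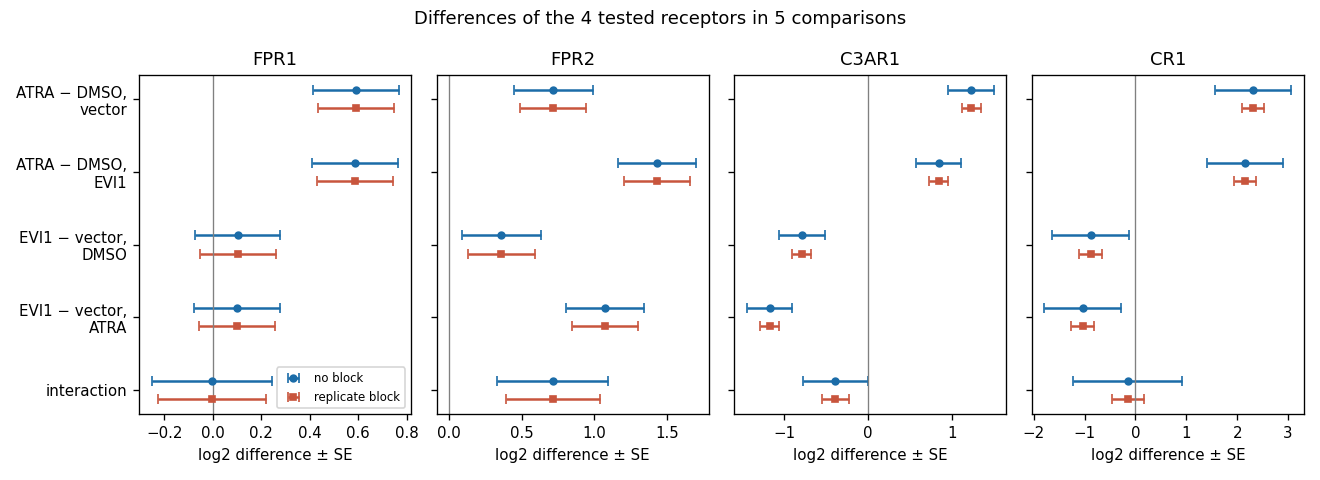
Log2 differences with standard errors of the 4 tested receptors in 5 comparisons, without and with the replicate number as a block, each panel with its own axis. The block leaves the differences as they are and narrows the standard errors most for CR1 (0.75 to 0.22) and C3AR1 (0.27 to 0.11). FPR2 lies above 0 and C3AR1 and CR1 below 0 in both comparisons of EVI1 with vector.

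Across the 12 arrays the 4 receptors fell into pairs, given here as a description, since the arrays share groups and replicate numbers. C3AR1 and CR1 correlated with r = 0.884 and FPR1 and FPR2 with r = 0.821, whereas C3AR1 and FPR2 had r = 0.235. FPR1 had r = 0.735 with CR1 and 0.536 with C3AR1, and FPR2 had r = 0.518 with CR1. Of all other tested genes, SPECC1 (0.929), MIDEAS (0.921) and WAS (0.916) were most like FPR1. PECAM1 (0.970), PLEKHO2 (0.962) and LILRA5 (0.961) were most like FPR2. AKR1C1 (0.967), AKR1C2 (0.952) and ADORA3 (0.949) were most like C3AR1, and XK (0.966), ITPR2 (0.966) and RPS3 (0.963) most like CR1. AKR1C1 and AKR1C2 are near-identical genes whose probe sets may read each other.

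Among the ligands of these receptors and their precursors, ANXA1 rose and HEBP1 and CTSG fell with ATRA in EVI1 cells. Of 13 listed genes 8 were tested, and with ATRA none was called in vector cells, where 2.00% of all genes were called higher and 1.52% lower (with the block 2 rose and 2 fell, against 9.96% and 10.1%). In EVI1 cells 1 rose and 2 fell, against 7.45% and 7.66% of all genes (2 and 2 with the block, against 16.3% and 19.4%). With so few genes tested, 1 or 2 calls say little about the list. Annexin A1 (ANXA1), whose N-terminal peptides bind formyl peptide receptors, rose by 1.66 ± 0.36 (SE) in EVI1 cells, from 9.42 ± 0.47 to 11.08 ± 0.60 (SD, n = 3, limma adjusted p = 0.0109), and differed by 1.27 ± 0.36 in vector cells (limma adjusted p = 0.0820, blocked 0.00189). HEBP1, the source of a peptide ligand of the family, fell by 0.48 ± 0.09, and cathepsin G (CTSG), a neutrophil protease that attracts leukocytes through FPR1, fell by 0.91 ± 0.20 in EVI1 cells. In vector cells their differences were -0.26 ± 0.09 and -0.56 ± 0.20 and passed with the block and not without it (blocked limma adjusted p = 0.0217 and 0.0199). Under ATRA CTSG was also lower in EVI1 than in vector cells, at -0.89 ± 0.20 (limma adjusted p = 0.0222). Under DMSO it differed by -0.54 ± 0.20, which passed with the block and not without it (limma adjusted p = 0.306, blocked 0.0443). C3 was higher with EVI1 under ATRA with the block alone (0.60 ± 0.25, blocked limma adjusted p = 0.0438). So 1 gene was lower under ATRA, against 2.33% of all genes, and 1 higher and 1 lower with the block (13.0% and 12.3%). Under DMSO 1 was lower with the block (2.99%). The median of the list was 0.12 in vector and 0.11 in EVI1 cells.

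Among other complement receptors and membrane regulators, ITGAM rose with ATRA in both cell types. Of 11 genes 8 were tested, with 1 up in vector cells, where 2.00% of all genes were (5 up and 1 down with the block, against 9.96% and 10.1%). In EVI1 cells 4 were up and 1 down, against 7.45% and 7.66% of all genes (7 up and 1 down with the block, against 16.3% and 19.4%). ITGAM, the alpha chain of complement receptor 3, rose by 2.61 ± 0.57 (SE) in vector and 2.80 ± 0.57 in EVI1 cells. In EVI1 cells ITGAX, the alpha chain of complement receptor 4, rose by 1.07 ± 0.26, the phagocytic receptor VSIG4 by 2.80 ± 0.73 and CD93 by 0.77 ± 0.18, and the C1q-binding protein C1QBP fell by 0.51 ± 0.10. In vector cells ITGAX (0.86 ± 0.26), CD93 (0.62 ± 0.18) and C1QBP (-0.25 ± 0.10) passed with the block and not without it (blocked limma adjusted p = 0.0044, 0.0242 and 0.0247). VSIG4 went from 5.33 ± 0.60 to 8.13 ± 1.97 (SD, n = 3), so its arrays under ATRA were far apart. CR2, C5AR2 and CD59 were below the signal limit. Of 8 other chemoattractant receptors tested (9 listed), CXCR2 (0.80 in vector, 1.11 in EVI1 cells) and the leukotriene B4 receptor LTB4R (0.69 and 0.76) rose in both cell types and the fatty acid receptor GPR84 rose by 1.17 in EVI1 cells (0.62 in vector cells, limma adjusted p = 0.260). These counts were the same with the block, 2 and 3, where 9.96% and 16.3% of all genes were higher, against 2.00% and 7.45% without it. None of these 8 complement or 8 chemoattractant genes was called between the cell types without the block. Of all genes 0.533% were higher and 0.682% lower under DMSO, and 3.28% and 2.33% under ATRA. With the block the platelet-activating factor receptor PTAFR was lower in EVI1 cells under ATRA (-0.59, blocked limma adjusted p = 0.00739), as was C1QBP (-0.31, blocked 0.00847). VSIG4 was higher there (2.08, blocked 0.0300). Of all genes 13.0% were higher and 12.3% lower under ATRA with the block.

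Among the signalling genes downstream of these receptors, GNG2, FGR and PIK3CG rose with ATRA in both cell types. Of 20 listed 18 were tested, with 3 up in vector cells, against 2.00% of all genes (9 up and 1 down with the block, against 9.96% and 10.1%). In EVI1 cells 8 were up and 1 down, against 7.45% and 7.66% of all genes (11 up and 1 down with the block, against 16.3% and 19.4%). The G protein subunit GNG2 rose by 2.41 ± 0.40 (SE) in vector and 3.34 ± 0.40 in EVI1 cells, the Src family kinase FGR by 2.58 ± 0.50 and 2.92 ± 0.50, and PIK3CG, the catalytic subunit of the G protein activated phosphoinositide 3-kinase, by 1.43 ± 0.29 and 1.39 ± 0.29. Its regulatory subunit PIK3R5 rose by 0.68 ± 0.14 in EVI1 cells, as did LYN (1.11), phospholipase PLCB2 (0.75), VAV1 (0.41) and RAC2 (0.37), and ELMO1 fell by 0.42. In vector cells LYN (0.63), PLCB2 (0.56), RAC2 (0.29) and ELMO1 (-0.42) passed with the block and not without it (blocked limma adjusted p from 0.00284 to 0.0456). Under ATRA 4 of the 18 were higher in EVI1 than in vector cells, PIK3R5 (0.96 ± 0.14), the Rac activator PREX1 (0.90 ± 0.19), GNB2 (0.79 ± 0.16) and GNA15 (0.60 ± 0.10), with limma adjusted p from 0.00318 to 0.0193, where 3.28% of all genes were higher. With the block 5 of the 18 were higher, PIK3CG being the fifth (0.89), against 13.0% of all genes. Under DMSO none of the 18 was called between the cell types without the block, and 4 were higher with it (GNA15, GNB2, PIK3CG and PREX1), against 4.20% of all genes.

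Among genes that switch such receptors off, RGS2 and GRK3 differed between the cell types, and RGS1 did with the block. Of 11 listed 10 were tested, and none was called with ATRA in vector cells, where 2.00% of all genes rose and 1.52% fell. With the block 1 was up there, GPSM3 (0.55, blocked limma adjusted p = 0.0236), about the share of all genes (9.96%). In EVI1 cells 1 was up, GPSM3 by 0.70, against 7.45% of all genes (4 up and 1 down with the block, against 16.3% and 19.4%). RGS2, which shortens G protein signals, was lower in EVI1 than in vector cells by -0.93 ± 0.11 (SE) under DMSO and -1.36 ± 0.11 under ATRA (limma adjusted p = 0.00148 and 6.16e-05). The receptor kinase GRK3 was higher by 0.48 ± 0.10 under DMSO and 0.48 ± 0.10 under ATRA (0.0419 and 0.0167). RGS1, a further regulator of G protein signals, had the largest difference of the list, 2.00 ± 0.63 under DMSO and 2.25 ± 0.63 under ATRA, and passed with the block and not without it (limma adjusted p = 0.195 and 0.0593, blocked 0.00111 and 0.000362). It was named for this size after its values were seen. Without the block 1 of the 10 was higher and 1 lower under each agent, against 0.533% and 0.682% of all genes under DMSO and 3.28% and 2.33% under ATRA. With the block 2 were higher and 1 lower under DMSO, against 4.20% and 2.99% of all genes, and 3 higher and 1 lower under ATRA, against 13.0% and 12.3%. Over the 5 lists, 52 of 64 genes were tested, of which 6 passed with ATRA in both cell types, 15 in EVI1 cells alone and 31 in neither. With the block 22 passed in both, 10 in EVI1 cells alone, 1 (C5) in vector cells alone and 19 in neither, and 11 of the 15 then passed in vector cells too. Over all 14080 genes 496 were called with ATRA in vector and 2127 in EVI1 cells (2818 and 5023 with the block). More calls in EVI1 cells are thus not particular to these lists. Whether a gene responds more in EVI1 cells is the interaction, and it was called for none of the 52.

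**Figure D5:**
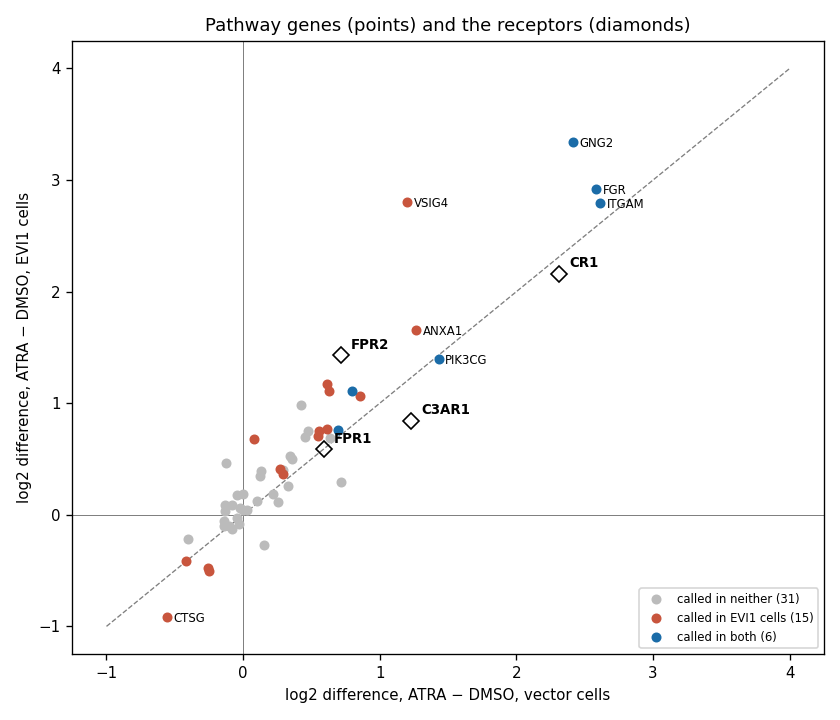
Log2 difference of ATRA against DMSO in vector cells (horizontal) and in EVI1 cells (vertical) for the 52 tested pathway genes (points, coloured by the comparisons in which they were called without the replicate block) and the 4 tested receptors (diamonds). The dashed line marks equal differences. GNG2, FGR, ITGAM and VSIG4 have the largest differences in EVI1 cells (2.80 to 3.34), FPR2 lies above the line and C3AR1 below it, and the distance from the line was not called for any gene.

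Markers of other cell types were measured beside these lists. The T and NK, erythroid, megakaryocyte, mast and basophil, epithelial, and fibroblast and endothelial lists had no gene called without the block in any comparison. The share of all genes called in 1 direction was 1.52% to 7.66% with ATRA and 0.533% to 3.28% between the cell types. With the block 1 T and NK gene, NKG7, was higher in EVI1 cells under each agent (0.39 and 0.55). Of all genes 4.20% were higher there under DMSO and 13.0% under ATRA. Of the B cell list, CD79B rose with ATRA in EVI1 cells by 0.55 ± 0.13 (SE) and was higher in EVI1 than in vector cells under ATRA by 0.77 ± 0.13, at 5.14 to 6.52 over the 12 arrays. Under DMSO it was higher in EVI1 cells by 0.48 ± 0.13, which passed with the block and not without it (blocked limma adjusted p = 0.0409). PAX5 passed with the block alone, lower with ATRA in EVI1 cells (-0.53 ± 0.38, blocked limma adjusted p = 0.0355) and higher in EVI1 than in vector cells under DMSO (0.69 ± 0.38, blocked 0.0384) and under ATRA (0.54 ± 0.38, blocked 0.0420). Of the B list 3 genes were tested. With the block 1 was thus up and 1 down with ATRA in EVI1 cells, against 16.3% and 19.4% of all genes. In EVI1 cells 2 were higher with it under each agent, against 4.20% of all genes under DMSO and 13.0% under ATRA. Without the block 1 rose with ATRA in EVI1 cells (7.45% of all genes) and 1 was higher in EVI1 cells under ATRA (3.28%). With so few genes tested, these calls say little about the list. MS4A1, a defining B cell gene, was below the signal limit (3.87 to 4.77), and the mean level of the B list was 5.68 to 5.86 under DMSO and 5.60 to 5.79 under ATRA in vector cells, and 5.84 to 6.17 and 5.87 to 6.05 in EVI1 cells. Its part in the receptor results was not tested.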

How the data were processed

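RNA of 12 U937 cultures in 4 groups of 3 (biotinylated from 250 ng of total RNA, per the labels) was measured on Affymetrix 3′ arrays. The table holds log2 signals deposited by the authors. Per the submitters' processing notes they come from RMA (background correction, normalisation between arrays, summary of the probes) in version 1.3 of Affymetrix Expression Console. They were used unscaled. Of 54675 probe sets 41097 carried exactly 1 symbol in the array annotation, 1801 carried several and were left out, and 11777 were not named. A gene was read by its probe set of highest mean, and 14080 of 19775 genes reached log2 5 on at least 3 arrays. Levels of different probe sets were not compared.

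The 4 group means were estimated in 1 limma model (version 3.58.1, R 4.3.3, lmFit and eBayes) over all 12 arrays, with 8 residual degrees of freedom. Each of 5 comparisons was adjusted over 14080 genes by Benjamini and Hochberg. A gene is called, and said to rise or fall, at an adjusted p under 0.05. Differences carry the SE of the fit. The number of arrays limits the precision, and p-values measure the spread between these replicates.

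Same-numbered arrays deviated together from their group means (18 of 18 pairs, r from 0.408 to 0.704), so the numbers pair the samples, as seen from the data, and the fit with the number as a block is given where it changes a call. No 2 arrays held identical values.

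The genes named were the 6 receptors, the genes of each pathway list called in a comparison, and the 3 genes most correlated with each tested receptor. The receptors and lists were chosen with earlier results of these data known. Alternatives varied the block, signal limit, probe sets, normalisation, variance trend, array weights, groups in the fit and arrays. All but the block itself were fitted without the block. Promoter sequences and gene order came from RefSeq for GRCh38.p14, which matched the Entrez identifiers of all 6 receptors. A promoter of FPR3 and protein sequences were not used here.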

Additional observations from a re-analysis of the deposited data

Results flagged for a closer look

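A probe set outside the comparisons, 239205_s_at, read higher under ATRA than on the DMSO arrays of the same cell type. It is annotated to both CR1 and its neighbour CR1L and was left out because it does not name 1 gene. It read 5.94, 6.39 and 6.89 in vector DMSO and 6.99, 8.26 and 7.87 in vector ATRA, a difference of 1.3 between means of 6.41 ± 0.48 and 7.71 ± 0.65 (SD, n = 3). In EVI1 cells it read 4.39, 5.66 and 5.39 under DMSO and 6.05, 7.36 and 7.03 under ATRA, a difference of 1.67 between means of 5.15 ± 0.67 and 6.81 ± 0.68. The DMSO and ATRA arrays did not overlap in either cell type. EVI1 cells were lower at every number, by -1.26 on average under DMSO and -0.89 under ATRA. Which of the genes this probe set reads was not tested.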

How the results depend on the processing

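With ATRA in vector cells 1 receptor was called, 3 with the replicate block, 3 with array weights, 0 without both number 3 DMSO arrays, and 0 to 2 without single arrays. With ATRA in EVI1 cells 2 were called, 4 with the block, 4 with array weights, 1 with no signal limit, 1 with each probe set as its own row, 1 with the mean of a gene's probe sets, 1 with only the 2 groups compared, 1 without both number 3 DMSO arrays, and 1 to 4 without single arrays. Between cell types under DMSO 0 were called and 2 with the block. Under ATRA 2 were called, 1 with the mean of probe sets, 0 with only the 2 groups, 1 without both number 3 DMSO arrays, and 0 to 2 without single arrays. The interaction was called 0 times under every alternative run. Signs turned for 2 small differences of FPR1 and 1 of CR1. FPR1 between cell types under ATRA was -0.057 with array weights and -0.093 to 0.30 without single arrays. The interaction of FPR1 was 0.10 without both number 3 DMSO arrays and -0.20 to 0.20 without single arrays, and that of CR1 was -0.81 to 0.66 without single arrays. The fewer arrays or groups of some alternatives leave fewer degrees of freedom, and the cause of the other changes was not tested. FPR1 fell below the signal limit with the mean of its probe sets and has no value there. Quantile normalisation, a variance trend and a stricter limit changed no count by more than 1.5 times. The block changed no receptor's call beyond those given beside its values. Over all genes it moved the calls from 496 to 2818 with ATRA in vector cells, 2127 to 5023 in EVI1 cells, 171 to 1013 between cell types under DMSO and 790 to 3559 under ATRA. Array weights gave 1387, 3888, 382 and 2761, the fits of only 2 groups 628, 735, 92 and 269, and 35 were called under DMSO without both number 3 arrays.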
